A study of Mus musculus with 8 samples.

Results

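Contractile and muscle filament genes are 10 genes chosen by name, Acta1, Acta2, Actg2, Tagln, Cnn1, Cnn2, Tpm1, Tpm2, Myl9 and Des, out of 23304 gene symbols in the count tables. They were followed in NIH3T3 cells, an immortalised fibroblast line from Swiss albino mouse embryos, by RNA sequencing of 8 libraries. The libraries were labelled as 4 groups of 2: Zmynd11 CRISPR knockout (KO) cells treated for 2 h with recombinant mouse IFN-β, a type I interferon, at 100 units/ml, unedited (WT) cells treated alike, untreated KO cells (0 h) and untreated WT cells (0 h). All groups grew in medium with donor bovine serum. The labels do not say how many KO clones there were, and the extraction notes speak of embryonic fibroblasts where the source is named NIH3T3. Since nothing says that replicates are separate cultures, the p-values cover the spread among these libraries alone, and that spread may be technical.

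Muscle actins polymerise into thin filaments that myosin pulls on. Tropomyosins lie along the filament and calponins and transgelin bind to it, the regulatory light chain switches myosin on when it is phosphorylated, and desmin forms the intermediate filaments that tie the apparatus together in muscle cells. Smooth muscle and activated fibroblasts (myofibroblasts) use Acta2, Tagln and the calponins, and many of these genes are classical targets of serum response factor, which binds a DNA element called the CArG box together with its actin-sensing partners of the MRTF family.

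The targeted gene went against the labels. Zmynd11, which encodes a reader of methylated histone H3.3, had 3.31 and 4.69 CPM (counts scaled to a common library size) in the libraries labelled KO 2 h, 3.18 and 3.61 CPM in those labelled WT 2 h, 137 and 131 CPM in those labelled KO 0 h and 123 and 120 CPM in those labelled WT 0 h. It was thus low in every library labelled 2 h and high in every library labelled 0 h, whatever the genotype label. The interferon-induced gene Ifit1 averaged 388, 2.84, 213 and 1.30 CPM in the groups labelled KO 2 h, WT 2 h, KO 0 h and WT 0 h, and Isg15 72.5, 3.56, 67.5 and 4.80 CPM, so that both were high in the libraries labelled KO. Groups are named by their labels throughout, every direction below is one between labels, and whether labels were exchanged was not tested. Gene reads summed to between 13671013 and 21299120 per library, and the library labelled KO 0 h replicate 2 stood apart with reads for 17498 genes, against 14847 to 15945 in the other 7.

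The 250 bases before the transcription start are shown for Acta2 and Cnn2, which were higher in the libraries labelled 2 h, for Acta1, which carries the most CArG-like stretches and had no called change, and for Des, which had the largest change. They are RefSeq sequences of GRCm38.p6, printed 5′ to 3′ on the strand of the gene. Capitals mark a CArG box, a stretch that keeps both its outer C pair and its outer G pair but has 1 base other than A or T in between, or CATTCC on either strand, the core of the element bound by TEAD factors.
Acta2, chr19:34255374-34255623, minus strand: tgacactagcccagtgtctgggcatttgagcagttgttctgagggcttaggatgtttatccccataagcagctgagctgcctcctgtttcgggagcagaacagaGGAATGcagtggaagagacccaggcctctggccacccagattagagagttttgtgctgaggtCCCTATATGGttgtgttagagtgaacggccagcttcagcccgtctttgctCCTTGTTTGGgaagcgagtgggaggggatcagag
Cnn2, chr10:79988350-79988599, plus strand: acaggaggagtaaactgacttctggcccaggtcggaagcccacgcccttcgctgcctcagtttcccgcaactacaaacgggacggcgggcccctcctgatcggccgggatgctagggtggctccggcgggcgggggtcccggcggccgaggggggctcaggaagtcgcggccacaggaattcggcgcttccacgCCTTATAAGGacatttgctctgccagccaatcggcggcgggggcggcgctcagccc
Acta1, chr8:123894776-123895025, minus strand: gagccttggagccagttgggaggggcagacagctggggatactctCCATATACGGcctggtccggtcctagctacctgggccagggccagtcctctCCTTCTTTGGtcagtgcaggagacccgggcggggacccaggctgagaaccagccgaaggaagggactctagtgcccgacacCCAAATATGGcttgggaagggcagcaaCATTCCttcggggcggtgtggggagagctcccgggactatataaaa
Des, chr1:75360042-75360291, plus strand: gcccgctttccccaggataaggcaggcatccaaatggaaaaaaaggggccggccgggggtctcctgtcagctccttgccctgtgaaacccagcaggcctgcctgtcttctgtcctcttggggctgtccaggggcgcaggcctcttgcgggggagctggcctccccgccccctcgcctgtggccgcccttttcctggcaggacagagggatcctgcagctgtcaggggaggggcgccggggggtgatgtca

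A CArG box lay in 3 of the 8 members with such a window, Acta1, Cnn2 and Myl9, beginning 73, 56 and 161 bases before the start, against 1.47% of 32851 mouse windows of the same length. With 1 such base allowed in the A/T core, and none in the outer pairs, 4 of 8 members held a stretch, against 8.59% of windows. Acta2 was the one added under this definition, with stretches beginning 84 and 34 bases before its start. CATTCC was found in Acta1, Acta2 and Tpm1, 3 of 8, against 12.6% of windows, and the interferon-type motif GAAANNGAAA, also searched on both strands, in 0 of 8, against 2.98%. The looser definition includes the box itself, so those counts overlap. Stretches with a changed outer base were not counted. Des, with the largest change, held none of these motifs, and no match says only that these letters are absent from this window. Actg2 and Tagln were not matched to a window.

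Per kilobase of transcript, Acta2, the smooth muscle α-actin, was the highest of the 10 in all 4 groups. It averaged 609 CPM per kb in the libraries labelled KO 2 h, 607 in those labelled WT 2 h, 399 in those labelled KO 0 h and 437 in those labelled WT 0 h. Tpm1 came next in all 4 groups, at 275, 281, 256 and 235 CPM per kb in the same order, and Cnn2 after it, at 266, 266, 140 and 161. The libraries of Tpm1 and Cnn2 overlapped at 2 h, but not at 0 h. Tagln stood above Tpm2 at 2 h, with 163 against 128 CPM per kb under the label KO and 166 against 130 under WT. Their order was the opposite at 0 h, with 62.1 against 118 under KO and 65.7 against 105 under WT. The other 5 members were far lower in every library: Actg2 averaged 6.81 to 11.7 CPM per kb in the 4 groups and Des 0.626 to 5.29, while Acta1, Myl9 and Cnn1 stayed at or below 1.07 CPM per kb in each library. Reads of the 10 members together made up 0.330 and 0.350% of gene reads in the libraries labelled KO 2 h, 0.346 and 0.346% in those labelled WT 2 h, 0.230 and 0.197% in those labelled KO 0 h, and 0.221 and 0.223% in those labelled WT 0 h. In bulk samples, a change in the share of cells that express a gene and a change in RNA per cell cannot be told apart.

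**Figure D1:**
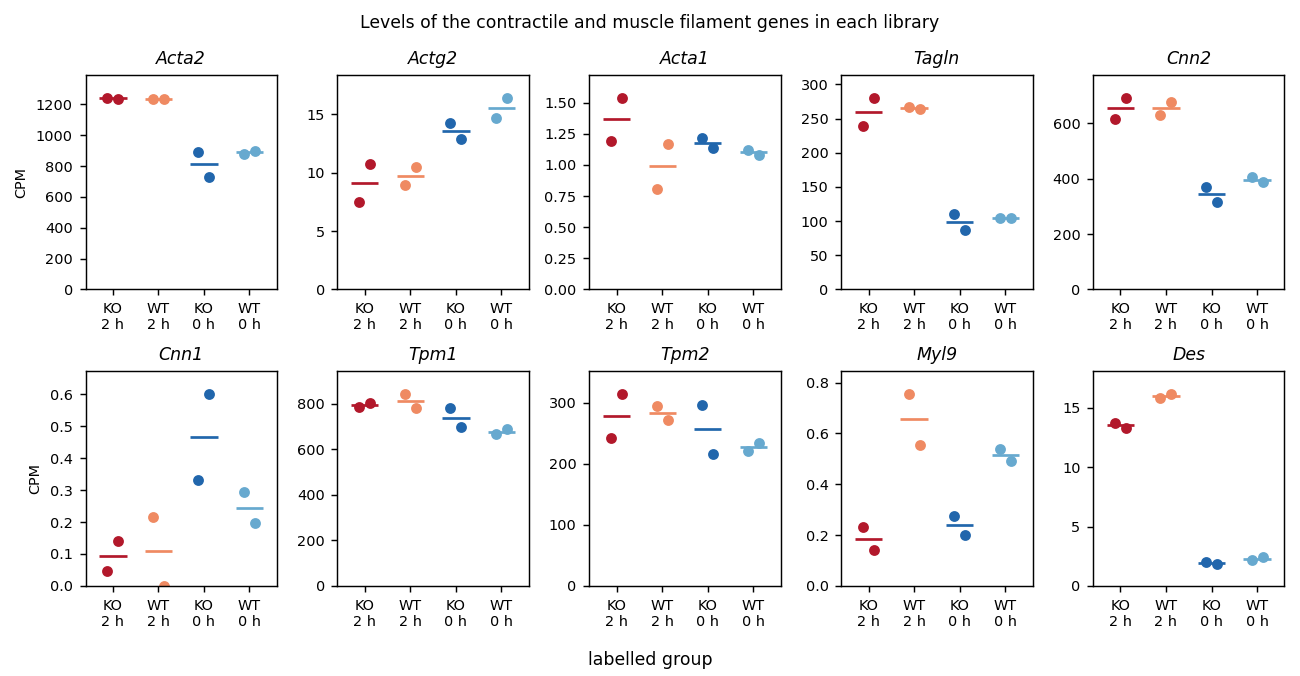
Level of each of the 10 members in CPM (linear axis starting at 0, own scale per gene) in the libraries labelled KO 2 h, WT 2 h, KO 0 h and WT 0 h; points are libraries and lines are group means. Acta2, Tagln, Cnn2 and Des are higher in all 4 libraries labelled 2 h than in all 4 labelled 0 h, and Actg2 is lower.

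Between labelled times, 4 members were higher and 1 lower at 2 h than at 0 h among libraries labelled KO, and 5 were higher and 1 lower among those labelled WT. These counts are out of 9, since Cnn1 did not pass the filter on low counts. A majority of the genes tested were called too: 61.1% of 12807 in KO (30.0% higher, 31.2% lower) and 61.2% in WT (30.1% higher, 31.1% lower), at an edgeR adjusted p under 0.05. The counts of members called, 5 and 6 of 9, were thus near the background. Called changes of at least 2-fold were seen in 2 of 9 members under each genotype label, Des and Tagln, against a background of 19.1% in KO and 19.0% in WT. The median log2 fold change of the 9 was 0.20 in KO and 0.35 in WT, against -0.01 and 0.01 over all genes tested. Scaling by library size alone, without the composition factor, moved the all-gene median by 0.15 in KO and 0.14 in WT and the higher share of calls to 61.4% in KO and 61.2% in WT. Members were then called in 6 of 9 cases in KO and 7 of 9 in WT, against 7870 and 7878 of the 12807 genes tested. All members that had been called stayed so in the same direction.

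Des, which encodes desmin, showed the largest change. It stood at 13.7 and 13.3 CPM in the libraries labelled KO 2 h, against 1.99 and 1.80 CPM in those labelled KO 0 h, and at 15.9 and 16.2 CPM in those labelled WT 2 h, against 2.15 and 2.41 CPM in those labelled WT 0 h. Every library labelled 2 h was therefore several times above every library labelled 0 h. The log2 fold change was 2.83 ± 0.22 (SE) in KO, a 7.10-fold difference (edgeR adjusted p = 3.54e-11), and 2.81 ± 0.19 in WT, 7.01-fold (adjusted p = 9.72e-12). Of the 50-base stretches of its transcript, 5.81% also occur in another annotated gene.

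Tagln, which encodes transgelin, an actin-binding protein and an early marker of smooth muscle, had 240 and 281 CPM in the libraries labelled KO 2 h, against 111 and 86.9 CPM in those labelled KO 0 h. Under the label WT it had 266 and 264 CPM at 2 h, against 105 and 104 CPM at 0 h. The 2 h and 0 h libraries did not overlap, and the differences were 1.39 ± 0.10 (2.62-fold, adjusted p = 5.69e-11) in KO and 1.34 ± 0.10 (2.53-fold, adjusted p = 8.59e-11) in WT on the log2 scale. Of its 50-base stretches 48.3% are shared with overlapping gene models, among them Pcsk7, a protease gene named here after its values were seen. Pcsk7 had 23.3 and 24.0 CPM in the libraries labelled KO 2 h, against 28.5 and 27.9 CPM in those labelled KO 0 h, and 18.5 and 27.5 CPM in those labelled WT 2 h, against 33.0 and 33.1 CPM in those labelled WT 0 h. It did not share the direction of Tagln (log2 fold change -0.26, adjusted p = 0.112, in KO and -0.53, adjusted p = 0.00180, in WT), and without strand information reads of overlapping genes cannot be told apart.

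Among the actins, Acta2 and Actg2 went in opposite directions. Acta2 had 1243 and 1236 CPM in the libraries labelled KO 2 h, against 893 and 729 CPM in those labelled KO 0 h, and 1232 and 1237 CPM in those labelled WT 2 h, against 880 and 897 CPM in those labelled WT 0 h. The 4 libraries labelled 2 h lay close together and above all 4 labelled 0 h (log2 fold change 0.61 ± 0.08, adjusted p = 1.11e-06, in KO and 0.47 ± 0.08, adjusted p = 3.15e-05, in WT). Actg2, the enteric smooth muscle γ-actin, had 7.45 and 10.7 CPM in the libraries labelled KO 2 h, against 14.2 and 12.8 CPM in those labelled KO 0 h. It had 8.96 and 10.4 CPM in those labelled WT 2 h, against 14.7 and 16.4 CPM in those labelled WT 0 h. Actg2 was lower in both, again without overlap (-0.60 ± 0.17, adjusted p = 0.00408, in KO and -0.68 ± 0.16, adjusted p = 0.00104, in WT). Without the library labelled KO 2 h replicate 1 the KO difference of Actg2 was -0.32, in a fit with 1 library left in that group. Acta1, the skeletal muscle α-actin, lay between 0.809 and 1.54 CPM in all 8 libraries. Its libraries labelled 2 h and 0 h overlapped under each genotype label (0.20 ± 0.44, edgeR adjusted p = 0.721, in KO and -0.16 ± 0.45, adjusted p = 0.779, in WT).

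The calponins stood far apart per kilobase, with Cnn2 at 140 to 266 CPM per kb in the 4 groups and Cnn1 at 0.0391 to 0.196. Cnn2, the broadly expressed calponin, had 615 and 694 CPM in the libraries labelled KO 2 h, against 371 and 318 CPM in those labelled KO 0 h, and 632 and 676 CPM in those labelled WT 2 h, against 405 and 388 CPM in those labelled WT 0 h. All 4 libraries labelled 2 h were above all 4 labelled 0 h (log2 fold change 0.92 ± 0.08, adjusted p = 2.49e-09, in KO and 0.72 ± 0.08, adjusted p = 1.15e-07, in WT). Cnn1, the smooth muscle calponin, had 1 and 2 reads in the libraries labelled KO 2 h, 4 and 0 in those labelled WT 2 h, 6 and 9 in those labelled KO 0 h and 6 and 4 in those labelled WT 0 h. It did not pass the filter. With no filter its log2 difference between 2 h and 0 h was -2.33 ± 1.41 (adjusted p = 0.161) in KO and -1.13 ± 1.37 (adjusted p = 0.590) in WT, so that a difference was not detectable at this depth.

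The tropomyosins were abundant and their differences were small. Tpm1 had 786 and 803 CPM in the libraries labelled KO 2 h, against 781 and 697 CPM in those labelled KO 0 h (log2 fold change 0.10 ± 0.08, adjusted p = 0.241), and 844 and 781 CPM in those labelled WT 2 h, against 666 and 691 CPM in those labelled WT 0 h (0.26 ± 0.08, adjusted p = 0.00525). Tpm1 thus passed the test under the label WT and not under KO, although the libraries did not overlap in either. The KO difference passed with library size alone (0.25, edgeR adjusted p = 0.00366), so which labels pass depends on the processing. Without the library labelled WT 0 h replicate 1 the WT difference was 0.22, and without KO 0 h replicate 1 the KO difference was 0.22. Such fits leave 1 library in a group, so no call is drawn from them. Tpm2 had 243 and 314 CPM in the libraries labelled KO 2 h, against 297 and 217 CPM in those labelled KO 0 h (0.11 ± 0.13, adjusted p = 0.481), and 294 and 271 CPM in those labelled WT 2 h, against 221 and 234 CPM in those labelled WT 0 h (0.31 ± 0.13, adjusted p = 0.0539). The KO replicates of Tpm2 were spread wider than the time labels. Its WT difference passed the test under 8 of 15 alternatives. Its KO difference was 0.39 without the library labelled KO 0 h replicate 1 and 0.31 without KO 2 h replicate 1. Without KO 2 h replicate 2 the KO difference was -0.06 and without KO 0 h replicate 2 it was -0.10. Its sign thus depended on the library left out, and no call is drawn from these fits.

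Myl9, the smooth muscle and non-muscle regulatory light chain, was close to the detection limit, where 3 reads are worth 0.138 to 0.210 CPM. It had 5 and 2 reads in the libraries labelled KO 2 h, 14 and 10 in those labelled WT 2 h, 5 and 3 in those labelled KO 0 h and 11 and 10 in those labelled WT 0 h. Only libraries labelled WT reached 10 reads, so Myl9 passed the filter through that side. Its difference between labelled times was -0.31 ± 0.93 in KO (adjusted p = 0.780) and 0.35 ± 0.61 in WT (adjusted p = 0.641).

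The library labelled KO 0 h replicate 2 had lower CPM than replicate 1 for 9 of the 10 members. The share of all genes lower in it was not computed, so the count is not read as a trait of the members. Without that library, the KO difference between 2 h and 0 h was 0.47 for Acta2, -0.68 for Actg2, 1.23 for Tagln, 0.82 for Cnn2 and 2.76 for Des on the log2 scale.

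**Figure D2:**
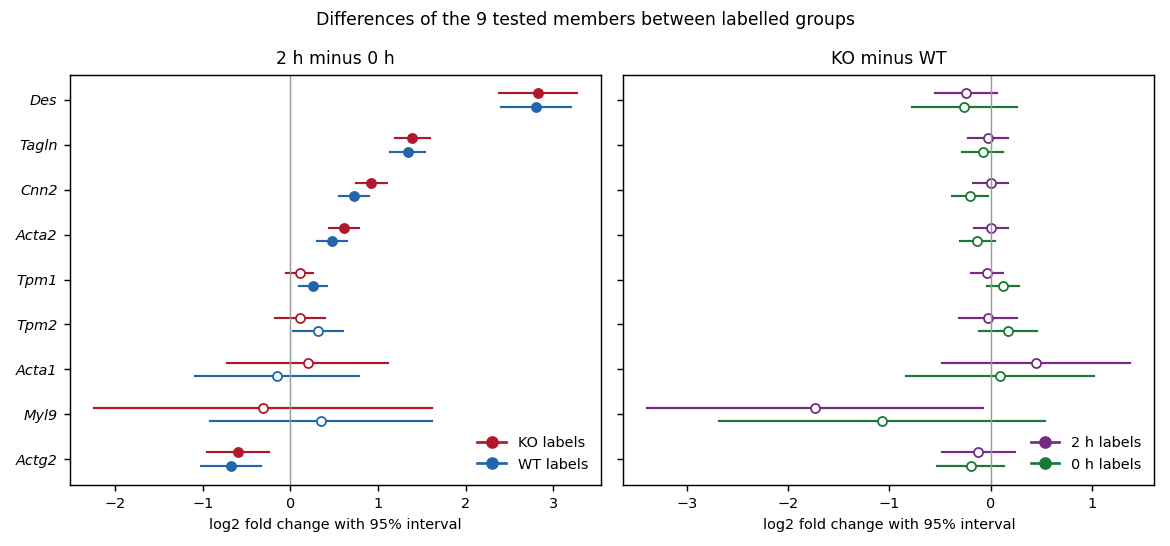
Log2 fold change of the 9 members tested, 2 h over 0 h within the libraries labelled KO and within those labelled WT, and KO over WT within each labelled time; points are edgeR estimates, filled where called, and bars are 95% intervals not adjusted for the number of genes. The time differences of Des, Tagln, Cnn2, Acta2 and Actg2 lie away from 0 under both genotype labels, whereas no genotype difference passed the adjusted threshold.

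Between labelled genotypes, 0 of 9 members were called at 0 h or at 2 h by edgeR. The background was 3.92% of genes called for KO 0 h against WT 0 h and 1.60% for KO 2 h against WT 2 h, so a count of 0 in 9 was near it. At an unadjusted p under 0.05 there was 1 member in each comparison, Cnn2 at 0 h and Myl9 at 2 h, against 20.4% of all genes at 0 h and 5.19% at 2 h. DESeq2 gave 0 adjusted calls in both, with 1 unadjusted at 0 h and 0 at 2 h. The 95% intervals at 2 h were narrow for several abundant members: -0.16 to 0.18 for Acta2 and -0.22 to 0.17 for Tagln on the log2 scale. They were -0.17 to 0.17 for Cnn2 and -0.19 to 0.12 for Tpm1, and wider for Tpm2, at -0.31 to 0.26. For Des the difference at 2 h was -0.24, with an interval of -0.55 to 0.07, and the libraries labelled KO 2 h were both below those labelled WT 2 h. Cnn2 at 0 h was -0.20 (edgeR adjusted p = 0.169), and its libraries labelled KO 0 h were both below those labelled WT 0 h. Actg2 and Des at 0 h were likewise lower under KO without overlap, whereas Tpm1 at 0 h and Acta1 at both times were higher under KO without overlap. The share of all genes without overlap was not computed, so no direction is drawn from these separations.

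Myl9 had the lowest estimates of the 9 in both genotype comparisons, -1.07 ± 0.78 at 0 h (adjusted p = 0.433) and -1.73 ± 0.80 at 2 h (adjusted p = 0.762). Libraries labelled KO held 2 to 5 reads and those labelled WT 10 to 14, so the labelled genotypes did not overlap. Since Myl9 passed the filter through the libraries labelled WT, that separation is in part set by the filter and supports no genotype difference. It rests on sums of 7 reads at KO 2 h, 24 at WT 2 h, 8 at KO 0 h and 21 at WT 0 h, and neither difference passed the test. Leaving out the library labelled KO 0 h replicate 1 gave -0.32 for Acta2, -0.31 for Tagln and -0.36 for Cnn2 for KO 0 h against WT 0 h. Replicate 2 was then the lone KO 0 h library, assumed to vary like the other groups, so no call is drawn from that fit. Without replicate 2 instead the estimates were -0.0019 for Acta2, 0.075 for Tagln and -0.10 for Cnn2.

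The difference between the KO and WT time changes was tested as an interaction, in which 0 of 9 members were called, against 0.133% of all genes. None had an unadjusted p under 0.05 in edgeR or DESeq2, against 12.8% of all genes in edgeR. Some members had one when 1 library labelled KO was left out. Such a fit has 1 library in that group, and its share over all genes was not computed, so nothing is drawn from it. The estimates were 0.14 for Acta2, 0.05 for Tagln, 0.20 for Cnn2, 0.02 for Des, 0.08 for Actg2, -0.16 for Tpm1 and -0.20 for Tpm2 on the log2 scale. The members with few reads had larger estimates and errors, -0.66 ± 1.11 for Myl9 and 0.35 ± 0.63 for Acta1. The 95% intervals reached from -0.10 to 0.38 for Acta2, from -0.23 to 0.33 for Tagln and from -0.58 to 0.62 for Des. For Tpm1, called in WT alone, the interval of -0.38 to 0.07 included no difference.

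Among the non-muscle relatives of these proteins, calls at 2 h against 0 h were toward lower levels. Of 11 such genes tested, none was higher, 5 were lower under the label KO and 7 under WT, against 31.2% and 31.1% of all genes lower and 61.1% and 61.2% called in either direction. The lists were not tested against each other. The median log2 fold change was -0.21 in KO and -0.30 in WT. Vim, the intermediate filament protein of fibroblasts, had 3928 and 4210 CPM in the libraries labelled KO 2 h, against 6777 and 6273 CPM in those labelled KO 0 h (-0.68, adjusted p = 6.28e-08), and 4023 and 4113 CPM in those labelled WT 2 h, against 6937 and 6667 CPM in those labelled WT 0 h (-0.74, adjusted p = 1.67e-08). Vim and Des were thus called in opposite directions. Actb, the cytoplasmic β-actin, was also lower, with log2 fold changes of -0.24 in KO and -0.48 in WT. So were Cnn3, the acidic calponin (-0.46 and -0.45), the tropomyosin Tpm3 (-0.64 and -0.52) and Myh10, a non-muscle myosin heavy chain (-0.44 and -0.30). Actg1 (-0.75) and Myl12b (-0.25) were called lower under WT, with -0.21 and 0.06 under KO, which did not pass. Tpm4, Myl6, Myl12a and the non-muscle myosin heavy chain Myh9 were not called in either. Transcripts of Actg1 share 56.7% of their 50-base stretches with other genes, Tpm3 62.4%, Myl12b 33%, Cnn3 30.3% and Myl12a 29.6%. Their counts can be too low where reads matching several places were left out, and the loss per gene was not measured. Actg1 averaged 2.90 to 4.90 CPM per kb in the 4 groups, against 1435 to 1999 for Actb. Per kilobase, the non-muscle regulatory light chain gene Myl12a averaged 292 CPM in the libraries labelled KO 2 h, 289 in those labelled WT 2 h, 280.3 in those labelled KO 0 h and 292 in those labelled WT 0 h, where Myl9 averaged 0.164, 0.581, 0.211 and 0.456.

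**Figure D3:**
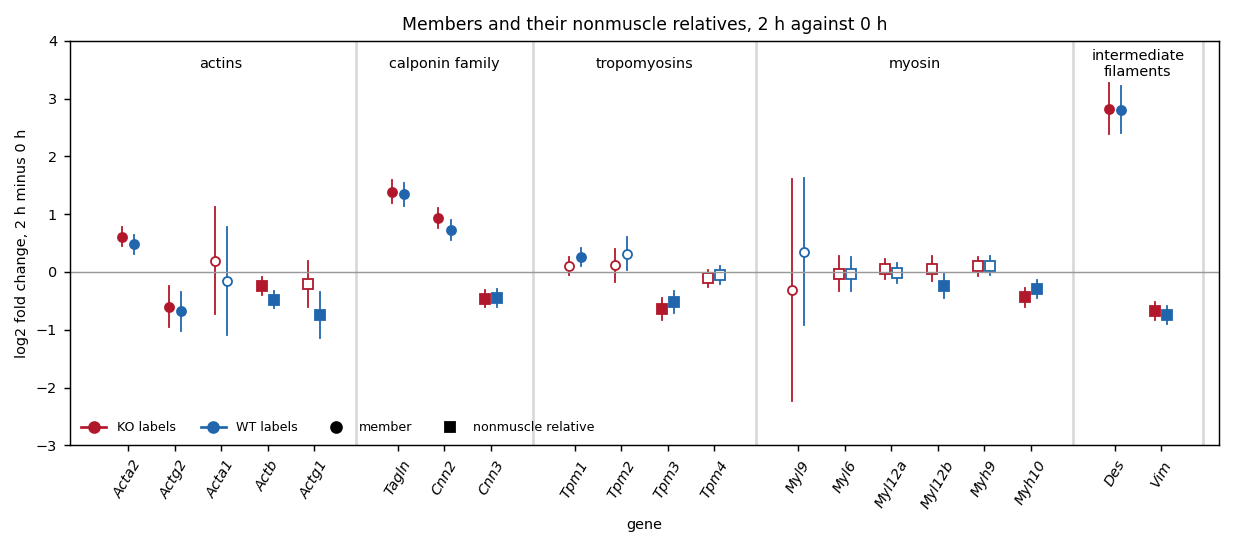
Log2 fold change, 2 h over 0 h, of the tested members (circles) and their non-muscle relatives (squares) by protein family, for libraries labelled KO (red) and WT (blue); bars are 95% intervals not adjusted for the number of genes, and symbols are filled where called by edgeR. Cnn2 and Acta2 lie above 0 while Cnn3 and Actb lie below it, and Des lies above 0 while Vim lies below it, under both genotype labels.

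Actin-crosslinking and adhesion genes were mixed. Of 18 tested, 10 were higher and 4 lower at 2 h under the label KO, and 8 were higher and 4 lower under WT, with a median log2 fold change of 0.26 in KO and 0.08 in WT. Over all genes, 30.0% were higher and 31.2% lower in KO, and 30.1% and 31.1% in WT. Csrp2, a LIM protein of vascular smooth muscle, had 19.9 and 22.1 CPM in the libraries labelled KO 2 h, against 138 and 119 CPM in those labelled KO 0 h, and 20.1 and 20.7 CPM in those labelled WT 2 h, against 132 and 134 CPM in those labelled WT 0 h (-2.62, adjusted p = 7.26e-16, and -2.70, adjusted p = 3.65e-16). Csrp2 therefore moved against Tagln, Acta2 and Cnn2. Filip1l was higher by 0.86 in KO and 1.18 in WT, and Cald1, caldesmon, which binds actin and tropomyosin, by 0.59 and 0.75. The focal adhesion LIM protein genes Tgfb1i1 and Pdlim7 were higher by 0.84 and 0.72 in KO and by 0.52 and 0.61 in WT.

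Of 10 regulators of myosin phosphorylation and contraction, 5 were higher and 1 lower under the label KO, and 6 higher and none lower under WT. The share called, 6 of 10 under each label, was near that of all genes, 61.1% in KO and 61.2% in WT. Rock1, a kinase that inhibits myosin phosphatase, had 311 and 331 CPM in the libraries labelled KO 2 h, against 179 and 215 CPM in those labelled KO 0 h, and 328 and 290 CPM in those labelled WT 2 h, against 134 and 137 CPM in those labelled WT 0 h. Its log2 difference was 0.71 in KO (adjusted p = 2.74e-07) and 1.19 in WT (adjusted p = 7.06e-11), with no overlap of the labelled times. Ppp1r12a, the targeting subunit of myosin phosphatase, was also higher (0.57 and 0.81), as were the small GTPase gene Rhob (0.91 and 0.57) and Cdc42ep3, an effector of Cdc42 (0.66 and 0.79).

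Of 6 factors tested among serum response factor and its partners, 1 was higher and 2 lower under the label KO, and none higher and 2 lower under WT. With so few genes, these counts say little beside the 61.1% and 61.2% of all genes called. Srf had 94.0 and 99.4 CPM in the libraries labelled KO 2 h, against 88.5 and 78.3 CPM in those labelled KO 0 h (0.21, adjusted p = 0.0362), and its WT difference was 0.08 (adjusted p = 0.442). Mkl1, which encodes the coactivator MRTF-A, was lower at 2 h: 61.7 and 60.4 CPM in the libraries labelled KO 2 h, against 96.0 and 96.0 CPM in those labelled KO 0 h, and 54.8 and 63.2 CPM in those labelled WT 2 h, against 111 and 118 CPM in those labelled WT 0 h (-0.65, adjusted p = 1.00e-06, and -0.96, adjusted p = 2.25e-09). MRTF-A and its relatives are regulated mainly by their position in the cell, which RNA counts do not measure. Myocd, the muscle coactivator myocardin, lay between 0 and 0.162 CPM and was not tested.

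Markers of muscle cells were examined beside the members. Of 9 smooth muscle markers, 5 were tested; 3 were higher and 1 lower at 2 h under each genotype label, where 61.1% of all genes were called in KO and 61.2% in WT. Hspb6, a small heat shock protein of smooth and striated muscle, had 25.6 and 25.8 CPM in the libraries labelled KO 2 h, against 8.33 and 7.75 CPM in those labelled KO 0 h (1.67, adjusted p = 3.24e-10), and 24.8 and 25.8 CPM in those labelled WT 2 h, against 7.77 and 8.21 CPM in those labelled WT 0 h (1.66, adjusted p = 2.27e-10). Synpo2 was higher by 1.59 in KO and 1.30 in WT, and Smtn, smoothelin, was lower (-0.61 and -0.88). The remaining call was of a different gene under each label. Lmod1 was higher in KO (1.11, edgeR adjusted p = 0.0173) and not called in WT (-0.30). Npnt was higher in WT (1.14, edgeR adjusted p = 0.0137) and not called in KO (0.74). The defining markers Myh11, Pln, Kcnmb1 and Myocd stayed at or below 0.889 CPM in every library, and the summed level of the 9 was 91.8 and 95.6 CPM in the libraries labelled KO 2 h, 88.4 and 92.8 in those labelled WT 2 h, 101 and 106 in those labelled KO 0 h and 119 in both labelled WT 0 h.

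Of 24 skeletal and cardiac markers, 9 were tested, with 2 higher and none lower under the label KO and 3 higher and 1 lower under WT. Over all genes, 61.1% were called in KO and 61.2% in WT, so the share of these markers called was not above the background. Their summed level was 73.8 to 81.4 CPM in the libraries labelled 2 h, against 34.7 to 43.4 CPM in those labelled 0 h, and Ttn made up most of the difference. Ttn, the giant spring protein of the sarcomere, had 39.5 and 26.4 CPM in the libraries labelled KO 2 h, against 1.27 and 3.68 CPM in those labelled KO 0 h, and 34.1 and 32.9 CPM in those labelled WT 2 h, against 2.69 and 1.18 CPM in those labelled WT 0 h. The differences were 3.80 (adjusted p = 1.54e-06) and 4.11 (adjusted p = 7.06e-07). The muscle determination genes Myod1, Myog, Myf5 and Myf6 stayed at or below 0.350 CPM in every library, and Myl1 had no read in any.

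Fibroblast markers were mostly lower in the libraries in which Des, Tagln, Acta2 and Cnn2 were higher. Of 10 tested out of 11, 1 was higher and 7 lower at 2 h under the label KO, and 1 higher and 8 lower under WT. Over all genes, 31.2% were lower and 61.1% called in either direction in KO, and 31.1% and 61.2% in WT. Vim is in this list as well as among the non-muscle relatives, so those counts overlap. Their summed level was 18652 to 20590 CPM in the libraries labelled 2 h, against 41451 to 46229 CPM in those labelled 0 h, and Col1a1, a chain of type I collagen, had 947 and 951 CPM in those labelled KO 2 h, against 9424 and 8770 CPM in those labelled KO 0 h. Summed markers of endothelial cells lay at 1.78 to 4.14 CPM, of epithelial cells at 3.03 to 7.56 CPM and of immune cells at 9.10 to 23.0 CPM, with Cd3e at 0 in all libraries. Of 6 satellite and mural cell markers 1 was tested, Cspg4, which was lower at 2 h (-0.52 in KO and -0.94 in WT), and Pax7 stayed at or below 0.0668 CPM. The part of any of these markers in the differences of the members was not tested.

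**Figure D4:**
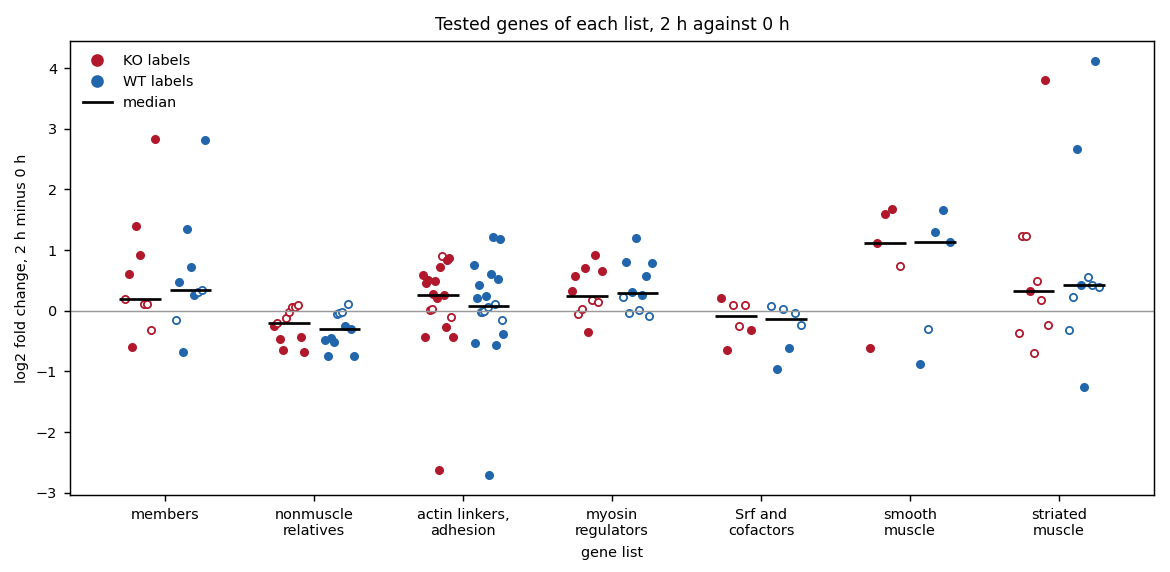
Log2 fold change between 2 h and 0 h of each tested gene of the lists of related and marker genes, for libraries labelled KO and for those labelled WT; points are genes, filled where called by edgeR, and black lines are medians. The contractile members spread from -0.68 (Actg2) to 2.83 (Des), while the non-muscle relatives lie at or below 0.11.

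The genes most like each member were taken as those with the smallest distance between centred log2 CPM profiles over the 8 libraries, among 8981 genes that averaged 10 CPM or more. These profiles share libraries and depth, so the values are descriptive. For Des they were Klhl24 (distance 0.360, Pearson r = 0.997) and Serpinb9b (0.457, r = 0.995). Klhl24 had 107 and 102 CPM in the libraries labelled KO 2 h, against 13.2 and 15.1 CPM in those labelled KO 0 h, and 118 and 116 CPM in those labelled WT 2 h, against 15.1 and 15.4 CPM in those labelled WT 0 h. For Tagln they were the proton pump subunit genes Atp6v1g1 (0.138, r = 0.999) and Atp6v1f (0.145, r = 0.997). Acta2 had Necap2 (0.0933) and Mien1 (0.114), Cnn2 had Abcb8 (0.119) and Mrpl38 (0.132), and Actg2 had Pfkl (0.230) and Mrps26 (0.240). Tpm1 was nearest to Ttc1 (0.0658) and Immt (0.0710), and Tpm2 to Clta (0.0893) and Mrps5 (0.140). Acta1 was nearest to Twist1 (0.288, r = 0.917) and Cebpd (0.317, r = 0.860), but it had few reads, so little is read from these matches. Myl9, with so few reads, had no near neighbour, the closest being Zfp28 at a distance of 1.22. The members themselves were left out of the candidates, so none could be named as nearest to another, and their likeness to each other was not compared here.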

How the data were processed

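The authors deposited raw read counts per gene symbol, 1 table per library, with 23304 symbols and 4 summary lines. The tools named, per the submitters' processing notes, are STAR 2.5.2b, HTSeq and bcl2fastq 2.15, with build mm9. Not given in the sources used here are the tool that counted the reads, the annotation and whether strand was used. Summary lines held 36.9 to 43.2% of reads, 14.1 to 17.0% mapping to several places, and were left out. Reads of near-identical or overlapping genes can therefore be undercounted or mixed.

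Tests used edgeR 4.0.16 (R 4.3.3). Genes passed filterByExpr (minimum count 10, minimum total 15), which kept 12807, and libraries were scaled by TMM. All 8 libraries entered 1 robust quasi-likelihood model, with a coefficient for each labelled group and 4 residual degrees of freedom; the biological coefficient of variation was 6.74%. There were 5 comparisons, with Benjamini-Hochberg adjustment over all genes kept and a call at an adjusted p below 0.05. CPM are counts over the TMM-scaled library size, and 1 read was worth 0.0460 to 0.0700 CPM. Fold changes are log2. Limits from reads cover counting error only. Replicates of each group differed by more than sampling noise (chi-square per degree of freedom 2.95 to 9.21). No column of values was left unused.

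The members and gene lists were chosen with earlier results of these data known. Genes named were the members, Zmynd11, Ifit1, Isg15, up to 4 called genes per list with the largest changes, the non-muscle relatives and serum response factor regulators, and the 2 nearest genes of each member. Promoter windows came from RefSeq, and transcript lengths and shared 50-base stretches from the longest protein-coding transcript of each gene in the GENCODE annotation; both use GRCm38, a later build than the counts, and no coordinate was converted. Scripts were tested on simulated data. Alternatives were RLE scaling, library size alone, DESeq2 1.42.0, 2 other filters, fits limited to the 4 libraries of a comparison, a replicate block and leaving out each library.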

Additional observations from a re-analysis of the deposited data

How the results depend on the processing

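Over 667 alternatives for the 9 members tested in 5 comparisons, 620 kept direction and side of the threshold, 2 lost a call, 17 gained one and 28 changed sign. The calls of Des, Tagln, Cnn2 and Acta2 between labelled times were kept under every alternative run, in both genotypes. For KO 2 h against WT 2 h, Acta2 was -0.0069 on the log2 scale with library size alone and -0.0057 with no filter, and Cnn2 0.0048 in a fit of the 4 libraries.

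When each library was left out, WT 2 h against WT 0 h ranged from -0.41 to 0.12 for Acta1, and KO 2 h against KO 0 h from -0.10 to 0.39 for Tpm2. For KO 0 h against WT 0 h, Tpm1 ranged from -0.0016 to 0.19, Tpm2 from -0.11 to 0.37 and Tagln from -0.31 to 0.075. For KO 2 h against WT 2 h, Acta2 ranged from -0.010 to 0.0057, Tpm1 from -0.093 to 0.011, Tpm2 from -0.23 to 0.14, Actg2 from -0.39 to 0.13, Tagln from -0.16 to 0.072 and Cnn2 from -0.10 to 0.074. The interaction ranged from -0.41 to 0.085 for Tpm2, from -0.19 to 0.33 for Actg2, from -0.043 to 0.13 for Des and from -0.10 to 0.28 for Tagln. None of these sign changes was of a called value.

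The genes called for KO 0 h against WT 0 h, 502 as reported, were 809 with no filter and 322 with a replicate block, and 174 to 1073 when a library was left out, the members called being 0 to 3. The 17 of the interaction were 33 with DESeq2, 113 with no filter and 6 to 91 when a library was left out. The causes were not tested.

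Replicate numbers did not pair the samples: same-numbered libraries deviated with r between -0.114 and 0.0431. With a replicate block, members called were 5 for KO 2 h against KO 0 h and 6 for WT 2 h against WT 0 h, as without it. All genes called with the block were 7580 and 7567 of 12807. A crossed pairing for KO, chosen after seeing the data, gave 7 members, Tpm1 and Tpm2 added, and 8045 of 12493 genes. With 2 libraries a group, small differences in Myl9, Cnn1 and Acta1 were not detectable at this depth.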

Other observations

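Among the non-muscle relatives, actin crosslinkers, myosin regulators and serum response factor regulators, Rock1 was the single gene called between labelled genotypes at 0 h. It had 179 and 215 CPM in the libraries labelled KO 0 h, against 134 and 137 CPM in those labelled WT 0 h (log2 fold change 0.54, edgeR adjusted p = 0.000322), and none of them was called at 2 h. Over all genes tested, 3.92% were called between labelled genotypes at 0 h and 1.60% at 2 h, so 1 call in these lists was not above the background.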
